A study of Mus musculus with 10 samples.

Results

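The genes described are 10 members of the MHC class I antigen presentation pathway, H2-K1, H2-D1, B2m, Tap1, Tap2, Tapbp, Psmb8, Psmb9, Psmb10 and Nlrc5. They were chosen by gene name from the 47643 genes in each deposited table, for their known role in this pathway. RNA was sequenced from mesenchymal cells of the Peyer's patches of wild-type C57BL/6 mice, the lymphoid follicles of the small intestinal wall. All libraries came from podoplanin-positive cells sorted without CD45, EpCAM1, TER119 and CD31, which remove leukocytes, epithelium, erythroid cells and endothelium. They were then split by surface MAdCAM1, a ligand for an integrin of homing lymphocytes, into MAdCAM1- cells, labelled MCi (n = 5 libraries), and MAdCAM1+ cells, labelled MRC (n = 5 libraries). The labels give no age or treatment and name no mouse for a library. The p-values below therefore set each group difference only against the spread between these libraries, and part of that spread may be technical.

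MHC class I molecules show peptides from inside the cell to CD8+ T cells. Proteasomes cut proteins into peptides, the TAP transporter carries these into the endoplasmic reticulum, and tapasin holds the transporter to newly made heavy chains that have paired with beta-2 microglobulin. Interferons, above all interferon gamma, raise most of these genes through transcriptional regulators such as IRF1 and NLRC5, and swap catalytic subunits of the constitutive proteasome for those of the immunoproteasome. Stromal cells of lymphoid organs live among T cells and are known to use the class I pathway.

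Of the 10 genes, 7 lie in the MHC on GRCm38 chromosome 17, within 1352 kb. Psmb9 (ENSMUSG00000096727, 34181988 to 34187764, minus strand), Tap1 (34187553 to 34197225, plus), Psmb8 (34197721 to 34201454, plus) and Tap2 (34203527 to 34216321, plus) stand side by side in 34.3 kb. H2-K1 (ENSMUSG00000061232, 33996017 to 34000333, minus) and Tapbp (33915899 to 33929288, plus) lie to one side of them and H2-D1 (ENSMUSG00000073411, 35262730 to 35267499, plus) to the other. B2m (ENSMUSG00000060802, 122147686 to 122153083, plus) is on chromosome 2. Psmb10 (105935728 to 105938392, minus) and Nlrc5 (94472763 to 94527272, plus) are on chromosome 8.

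The promoters of the heavy chain genes H2-K1 and H2-D1 and of B2m are shown because these genes encode the parts of the class I molecule itself. Their RNA also varied together between libraries, for B2m more closely by unique than by total exon reads, as given below. The windows are RefSeq sequence of GRCm38.p6, 250 bases before to 50 bases after an annotated start, 5′ to 3′ on the strand of the gene. They are chr17:34000298-34000597 (minus strand) for H2-K1, chr17:35262844-35263143 (plus) for H2-D1 and chr2:122147437-122147736 (plus) for B2m. Capitals mark a kappa-B palindrome (GGGGA, then T, then TCCCC) or the core of an interferon-stimulated response element (GAAA, any 2 bases, then GAAA), each searched on both strands.
H2-K1: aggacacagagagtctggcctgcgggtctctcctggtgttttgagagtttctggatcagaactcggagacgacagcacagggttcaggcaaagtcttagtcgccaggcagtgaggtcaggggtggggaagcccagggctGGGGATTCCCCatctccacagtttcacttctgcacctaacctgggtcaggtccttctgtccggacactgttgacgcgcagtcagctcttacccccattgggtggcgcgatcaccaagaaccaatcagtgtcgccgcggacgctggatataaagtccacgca
H2-D1: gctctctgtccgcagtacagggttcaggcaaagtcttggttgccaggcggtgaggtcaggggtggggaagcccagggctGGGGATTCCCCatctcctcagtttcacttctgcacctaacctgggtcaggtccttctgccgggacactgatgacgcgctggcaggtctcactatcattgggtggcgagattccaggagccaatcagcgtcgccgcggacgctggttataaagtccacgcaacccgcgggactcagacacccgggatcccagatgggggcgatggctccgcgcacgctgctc
B2m: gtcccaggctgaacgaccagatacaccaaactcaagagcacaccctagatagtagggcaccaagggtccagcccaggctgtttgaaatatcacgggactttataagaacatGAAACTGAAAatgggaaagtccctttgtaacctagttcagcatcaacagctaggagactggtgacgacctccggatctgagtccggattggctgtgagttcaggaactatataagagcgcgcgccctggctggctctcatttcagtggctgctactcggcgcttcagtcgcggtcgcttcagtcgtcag

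The H2-K1 and H2-D1 windows share a run of 47 identical bases that holds the palindrome. In the windows shown, the palindrome starts 111 bases before the H2-K1 start and 171 bases before the H2-D1 start. It starts 125 bases before another annotated H2-K1 start, whose window is not shown, so these distances depend on the annotated start. The palindrome was found in 10 of 32851 promoter windows of this length (0.0304%), belonging to 9 genes, of which H2-K1, H2-D1 and the class I gene H2-Q6 are 3. The response element core occurred in 3.44% of all windows, and B2m was the 1 gene of the 8 with a window that held it, 139 bases before its start. A gamma-activated site (TTCNNNGAA) occurred in 8.30% of all windows and, of these 8 genes, in that of Psmb8. Only exact matches to these letters were searched, so a window with no match may still hold a variant of an element. These matches describe letters in the windows, and binding was not measured.

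Libraries held 3941032 to 8738115 total exon reads, and 3 reads equalled 0.343 to 0.761 CPM, the read count scaled to library size. The edgeR quasi-likelihood test called 53 of 12127 genes at an adjusted p under 0.05, 9 higher in MRC and 44 higher in MCi. Summed RNA of 15 intestinal epithelial markers was 19.6 to 1514 CPM in MCi and 12.9, 405, 5682, 34413 and 46865 CPM in MRC1 to MRC5. MRC4 and MRC5 also had 6.66% and 4.28% mitochondrial exon reads, against 0.706% to 1.58% in the other 8 libraries. Estimates without these libraries are therefore given as well for the members and for several other genes. Summed RNA of 12 mesenchymal markers, Pdpn and the collagens among them, was 30809 to 143281 CPM over all libraries, lowest in MRC4 and MRC5. Leukocyte markers summed to 17.1 to 104 CPM over 14 genes and endothelial markers to 7.40 to 71.6 CPM over 10 genes. How far RNA of other cells enters the results was not tested.

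The class I genes were expressed in both populations, and none passed the test between them. Of the 10 members, all were tested and 0 were called by edgeR, where 0.437% of all genes were called. By unique exon reads edgeR called 0 of them too, beside 0.413% of all genes, and DESeq2 called 0 beside 7.18%. At an unadjusted p under 0.05, Nlrc5 passed in both tools, 1 of 10 beside 16.7% of all genes in edgeR and 19.3% in DESeq2. The estimates lay below 0, toward MCi, for 8 of 10 members, with a median log2 fold change (MRC minus MCi) of -0.24, against 0.01 over all genes tested, of which 5942 of 12127 had estimates below 0. The MCi and MRC values overlapped for all 10 members, while 2.69% of genes had every MCi library above every MRC library and 1.1% the reverse. Without MRC4 and MRC5, 0 members were called beside 1.03% of all genes, and all 10 estimates lay below 0 with a median of -0.28, where 6316 of 12411 genes lay below 0 with a median of -0.0086. The estimates without them were -0.30 ± 0.29 for H2-K1, -0.38 ± 0.28 for H2-D1, -0.14 ± 0.33 for B2m, -0.41 ± 0.37 for Tap1, -0.07 ± 0.16 for Tap2, -0.14 ± 0.19 for Tapbp and -0.44 ± 0.27 for Psmb9 (edgeR adjusted p = 0.582 to 0.911), and those of Psmb8, Psmb10 and Nlrc5 are given with their levels. Estimates below 0 were not particular to the members. Without MRC4 and MRC5 the 14 constitutive proteasome subunits tested also all lay below 0, with a median of -0.21. The other lists of the wider pathway, described below, had estimates on both sides of 0. In bulk RNA, fewer cells that express a gene and less RNA in each cell cannot be told apart.

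**Figure D1:**
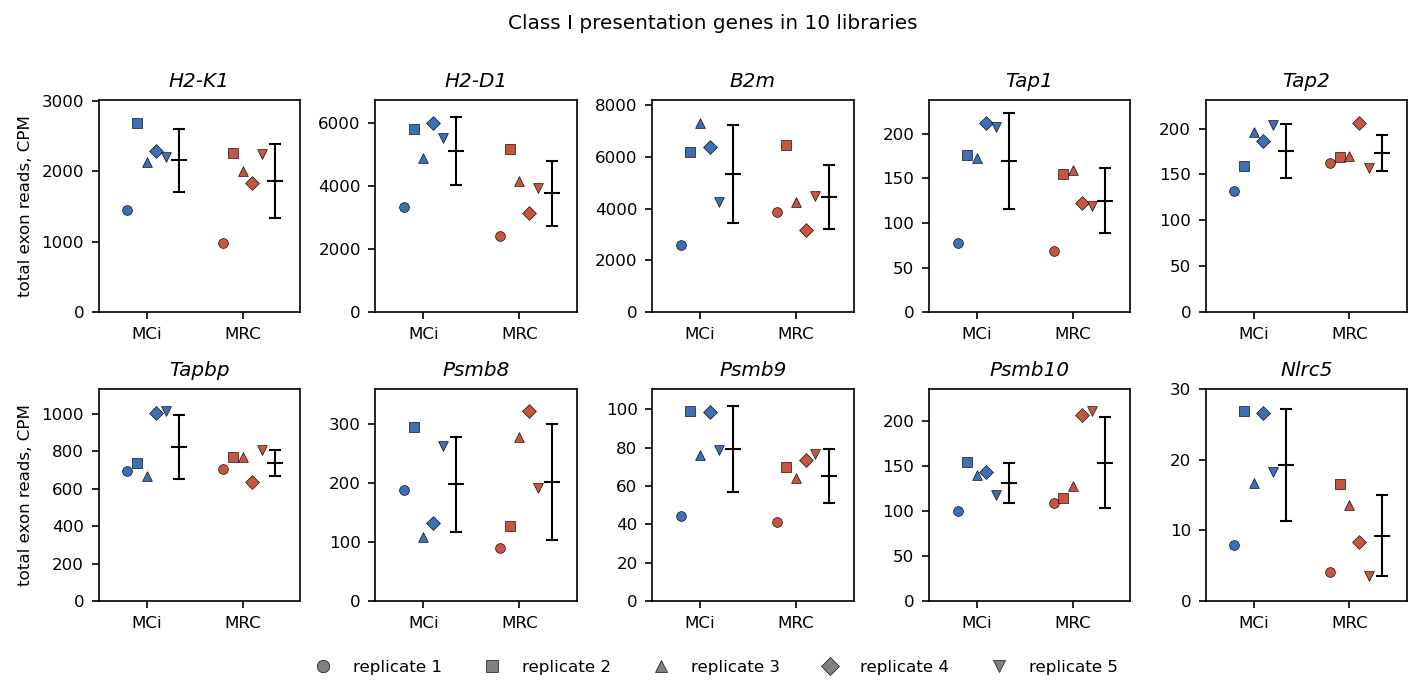
CPM of total exon reads (vertical axis, from 0) for the 10 genes in 5 MCi libraries (blue) and 5 MRC libraries (red), with the symbol giving the replicate number and the bar the mean ± SD. The groups overlap for every gene, and replicate 1 (circle) is the lowest library of both groups for H2-K1, H2-D1, Tap1, Psmb9 and Psmb10.

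H2-K1 and H2-D1 encode the classical class I heavy chains of this strain. H2-K1 measured 1450.1, 2694, 2140.3, 2293 and 2203 CPM in MCi1 to MCi5 and 980.0, 2261, 2010.4, 1831 and 2252 CPM in MRC1 to MRC5. Replicate 1 was the low library on both sides, and the other 8 libraries fell between 1831 and 2694 CPM. The log2 fold change was -0.21 ± 0.26 (SE; edgeR adjusted p = 0.755), with a 95% interval of -0.79 to 0.37. H2-D1 measured 3334, 5821, 4892, 6014 and 5523 CPM in MCi and 2421, 5159.7, 4175, 3159 and 3922 CPM in MRC. MRC1, MRC4 and MRC5 lay at 2421, 3159 and 3922 CPM, and MRC2 lay between MCi3 and MCi5. Its log2 fold change was -0.44 ± 0.26 (edgeR adjusted p = 0.426; 95% interval -1.01 to 0.13).

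Class I genes resemble each other, and reads that match several of them can be assigned to the wrong row. Of the 50-base words in H2-K1 transcripts, 9.63% occurred in transcripts of another gene, and 12.8% of those of H2-D1. The authors nonetheless counted 98.7% to 99.8% of H2-K1 exon reads and 95.8% to 98.5% of H2-D1 exon reads as unique. With unique exon reads alone the log2 fold changes were -0.16 ± 0.27 for H2-K1 and -0.40 ± 0.26 for H2-D1 (edgeR adjusted p = 0.816 and 0.474). When the 21 heavy chain rows were added into 1, of whose reads H2-K1 and H2-D1 made up 79.9%, the log2 fold change was -0.26 ± 0.27 (edgeR adjusted p = 0.680).

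B2m encodes beta-2 microglobulin, the light chain of all class I molecules. It measured 2595, 6183, 7327, 6364 and 4263 CPM in MCi and 3857, 6464, 4267, 3166 and 4481 CPM in MRC. The MRC values lay within the MCi range. The log2 fold change was -0.27 ± 0.31 (edgeR adjusted p = 0.726; 95% interval -0.95 to 0.41). Relative to exon length, B2m averaged 6217 ± 2206 CPM per kb (SD, n = 5) in MCi and 5171 ± 1435 in MRC, rank 3 of the 12127 genes tested. On that scale H2-D1 had rank 21 with 1984 ± 420.0 CPM per kb in MCi and 1461 ± 403 in MRC, and H2-K1 rank 45 with 827 ± 172 and 716 ± 202. H2-D1 was above H2-K1 per kb in each of the 10 libraries.

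The B2m values depended on which exon reads were counted. Unique reads made up 53.5%, 47.8%, 29.6%, 39.9% and 61.2% of B2m exon reads in MCi1 to MCi5, and 31.3%, 37.2%, 50.2%, 60.8% and 50.9% in MRC1 to MRC5. The groups overlapped, and libraries of the same group differed by up to 31.6 percentage points, a spread above 20 points that was seen in 86 of 4720 well-covered genes (1.82%). Of 140377 B2m exon reads that did not cross a splice junction, 0 were counted as unique, whereas 119889 of 120030 reads that did cross one were. B2m shared no 50-base word with another gene, but its row lies wholly inside that of Patl2, which is annotated on the opposite strand and received 1 exon read in all libraries together. Of the well-covered genes, 143 of the 174 with 0 unique unspliced reads (82.2%) lay wholly inside another gene and 0 of the other 4546 did. The library kit does not mark strand, so reads of overlapping genes cannot be told apart.

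Counted by reads across splice junctions, B2m followed the heavy chains more closely. Unique exon reads of B2m gave 1517, 3305, 2379, 2745 and 2807 CPM in MCi and 1303, 2652, 2530.2, 2231 and 2519 CPM in MRC. MCi3, the highest library by total reads, fell below MCi2, MCi4 and MCi5, and MRC1 became the lowest of MRC. Across the 10 libraries, Pearson's r between log2 CPM of B2m and H2-K1 was 0.61 with total reads and 0.97 with unique reads, and between B2m and H2-D1 it was 0.73 and 0.91. These are descriptions over libraries that differ in depth and purity. With unique reads the log2 fold change of B2m was -0.18 ± 0.26 (edgeR adjusted p = 0.788).

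**Figure D2:**
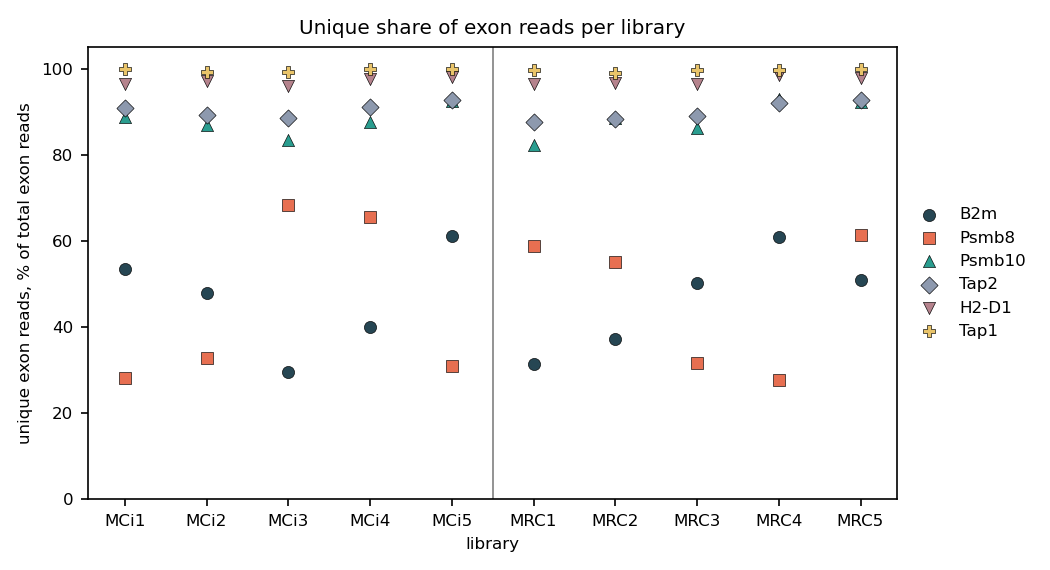
Unique exon reads as a percent of total exon reads (vertical axis) for 6 of the genes in each library (horizontal axis, MCi to the left of the line). B2m and Psmb8 range from 29.6% to 61.2% and from 27.8% to 68.3% between libraries, whereas H2-D1 and Tap1 stay at 95.8% or above.

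Tap1 and Tap2 encode the paired subunits of the peptide transporter. Tap1 measured 77.9, 177, 173, 213 and 207 CPM in MCi and 68.1, 155, 159.9, 122.6 and 119 CPM in MRC. The replicate 1 libraries were the lowest of both groups, and MCi1 lay below 4 of the 5 MRC libraries. Its log2 fold change was -0.44 ± 0.30 (edgeR adjusted p = 0.504; 95% interval -1.10 to 0.22). Tap2 measured 132, 159, 196, 187 and 204 CPM in MCi and 163, 169, 170.2, 207 and 157 CPM in MRC. It varied 1.56-fold between its lowest and highest library, the least of the 10 members, and its log2 fold change was -0.02 ± 0.16 (edgeR adjusted p = 0.969; 95% interval -0.38 to 0.34). Replicate 1 did not stand low for Tap2 in MRC, unlike for Tap1. Per kb of annotated exon the values were 31.0 ± 9.90 CPM per kb for Tap1 and 46.5 ± 7.87 for Tap2 in MCi, and 22.8 ± 6.71 and 45.8 ± 5.15 in MRC. These rest on annotated exon lengths of 5476 bases for Tap1 and 3781 for Tap2. The lengths of the RNA present were not measured, so the values do not show that the subunits differed in level.

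Tapbp encodes tapasin, which bridges the transporter and the empty class I molecule. It measured 697, 736, 671, 1007 and 1013 CPM in MCi and 708, 767, 771, 636 and 806 CPM in MRC. MCi4 and MCi5 stood above all other libraries, which lay between 636 and 806 CPM. The log2 fold change was -0.16 ± 0.19 (edgeR adjusted p = 0.726; 95% interval -0.57 to 0.25). The Tapbp row overlaps that of Zbtb22 by 3421 bases on the same strand, and 96.7% to 98.5% of its exon reads were unique.

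Psmb8, Psmb9 and Psmb10 encode the catalytic subunits beta5i, beta1i and beta2i of the immunoproteasome. Psmb8 measured 188, 294, 109, 132 and 264 CPM in MCi and 89.8, 128, 278, 321 and 192 CPM in MRC. The groups covered the same range, and the log2 fold change was 0.03 ± 0.39 (edgeR adjusted p = 0.983; 95% interval -0.82 to 0.88). The unique share of its reads fell into a low and a high range, 27.8% to 32.7% in MCi1, MCi2, MCi5, MRC3 and MRC4 and 55.2% to 68.3% in the other 5 libraries. Of 7149 Psmb8 exon reads that crossed no junction, 341 were unique, and 57.3% of the Psmb8 row is overlapped by Gm20496 on the opposite strand. By unique exon reads Psmb8 measured 58.1, 108, 81.9, 93.7 and 87.7 CPM in MCi and 56.9, 77.8, 104, 103 and 129.8 CPM in MRC. That is a narrower spread with replicate 1 lowest in both groups. The log2 fold change was then 0.14 ± 0.24 (edgeR adjusted p = 0.824). Without MRC4 and MRC5 the estimate from total reads was -0.26 ± 0.44 (edgeR adjusted p = 0.874).

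Psmb9 measured 44.2, 98.9, 76.3, 98.5 and 78.6 CPM in MCi and 41.3, 69.7, 64.2, 73.7 and 76.7 CPM in MRC. Replicate 1 was again lowest on both sides. The log2 fold change was -0.28 ± 0.24 (edgeR adjusted p = 0.612; 95% interval -0.82 to 0.25). Psmb10 measured 100.02, 155, 140.0, 144 and 119 CPM in MCi and 109.6, 115, 129, 207 and 211 CPM in MRC. MRC4 and MRC5 were above all other libraries, and these are the libraries with the highest epithelial marker RNA. Psmb10 had a log2 fold change of 0.23 ± 0.23 with them and -0.16 ± 0.17 without them (edgeR adjusted p = 0.677 and 0.773).

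Nlrc5 encodes the transactivator that binds class I promoters, and it had the lowest level and the largest estimate of the 10. It measured 7.88, 26.8, 16.8, 26.6 and 18.2 CPM in MCi and 4.06, 16.6, 13.5, 8.34 and 3.58 CPM in MRC. MRC5, MRC1 and MCi1 were the 3 lowest libraries, and MRC2 came closest to MCi3 with 16.6 against 16.8 CPM. The log2 fold change was -1.07 ± 0.48 (edgeR unadjusted p = 0.0464, adjusted p = 0.290; 95% interval -2.11 to -0.02). Counts were small, 17 to 192 exon reads per library, and the gene had rank 10147 of 12127 per kb. By unique reads the estimate was -1.03 ± 0.50 (edgeR adjusted p = 0.324), and without MRC4 and MRC5 it was -0.76 ± 0.49 (edgeR adjusted p = 0.611). MCi averaged 2.09-fold the MRC level by total reads.

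**Figure D3:**
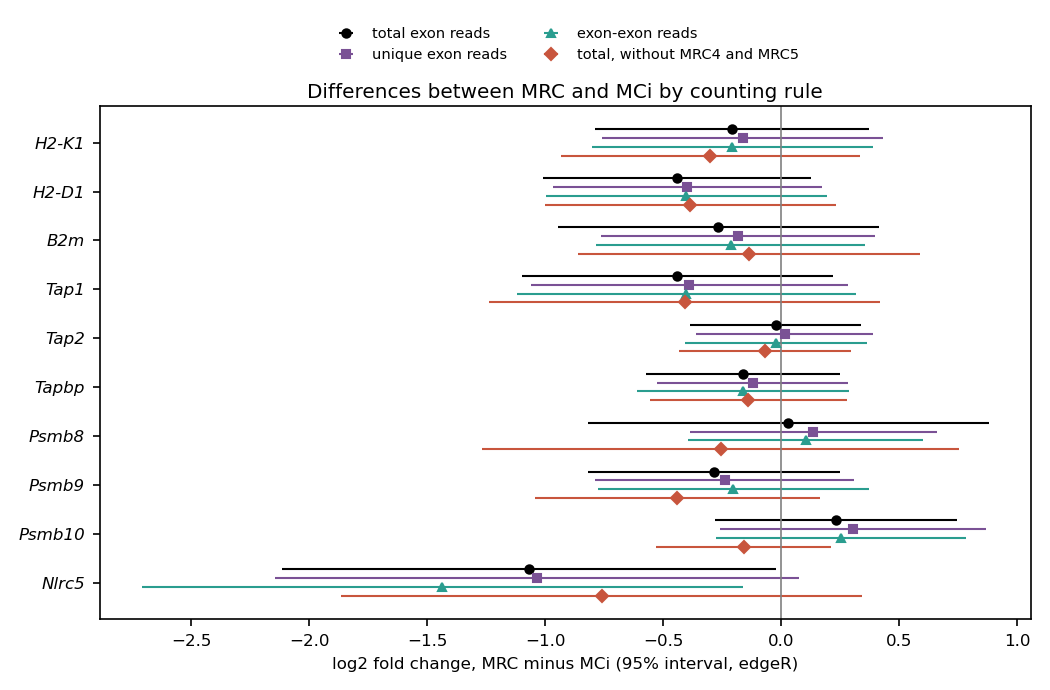
Log2 fold change, MRC minus MCi (horizontal axis), with its 95% edgeR interval for each gene under 4 ways of counting. The intervals from total exon reads include 0 for 9 genes and end at -0.02 for Nlrc5, and the estimates for Psmb8 and Psmb10 change side when MRC4 and MRC5 are left out.

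Each immunoproteasome subunit takes the place of a constitutive subunit in the core, so their ratio was taken within each library. The log2 ratio of Psmb10 to Psmb7, in reads per kb, was 2.15, 2.55, 2.77, 2.83 and 2.89 in MCi and 2.54, 2.57, 2.86, 3.38 and 3.14 in MRC. Psmb10 thus had 4.43 to 10.4 times the reads of Psmb7 per kb of annotated exon in every library. These values rest on annotated exon lengths, 1270 bases for Psmb10 and 3421 for Psmb7, and the lengths of the RNA present were not measured. Before scaling by length, Psmb10 had 7778 exon reads over all libraries and Psmb7 had 2922. The log2 ratio of Psmb9 to Psmb6 was -1.46 ± 0.48 (SD, n = 5) in MCi and -1.84 ± 0.47 in MRC. The constitutive subunit was the higher per kb of annotated exon in all 10 libraries. That order too rests on annotated exon lengths, 3659 bases for Psmb9 and 1872 for Psmb6, and holds for the scaled values only. Before scaling, Psmb9 had 4020 exon reads over all libraries and Psmb6 had 6294. The log2 ratio of Psmb8 to Psmb5 per kb was -0.29 ± 0.70 in MCi and -0.25 ± 0.84 in MRC, on both sides of 0. It rests on annotated exon lengths of 2736 bases for Psmb8 and 871 for Psmb5. Before scaling by length, Psmb8 had 11271 exon reads over all libraries and Psmb5 had 4072. By unique exon reads the means of this ratio were -1.10 and -1.01, and by exon-exon reads -0.02 and 0.05. Exact two-sided permutation tests over 252 regroupings, whose smallest p is 0.00794, gave p = 0.246, 0.333 and 0.937 for the MRC minus MCi differences of 0.26, -0.38 and 0.05. Adjusted over 4 ratios these were 0.444, 0.444 and 0.937. Of the 50-base words of Psmb5, 54.1% occur in another gene, so its level and the ratio on it are uncertain. The unique share of Psmb8 reads also varied, from 27.8% to 68.3% between libraries.

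The ratio of the heavy chains differed most between libraries of MRC. The log2 ratio of H2-D1 to H2-K1 per kb was 1.22, 1.13, 1.21, 1.41 and 1.34 in MCi and 1.32, 1.21, 1.07, 0.80 and 0.82 in MRC. MRC4 and MRC5 were the lowest and the other 3 MRC libraries lay in or near the MCi range. The difference of -0.22 had p = 0.0952 (exact permutation test; adjusted over 4 ratios p = 0.381), and without MRC4 and MRC5 it was -0.06 (exact permutation p = 0.464).

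**Figure D4:**
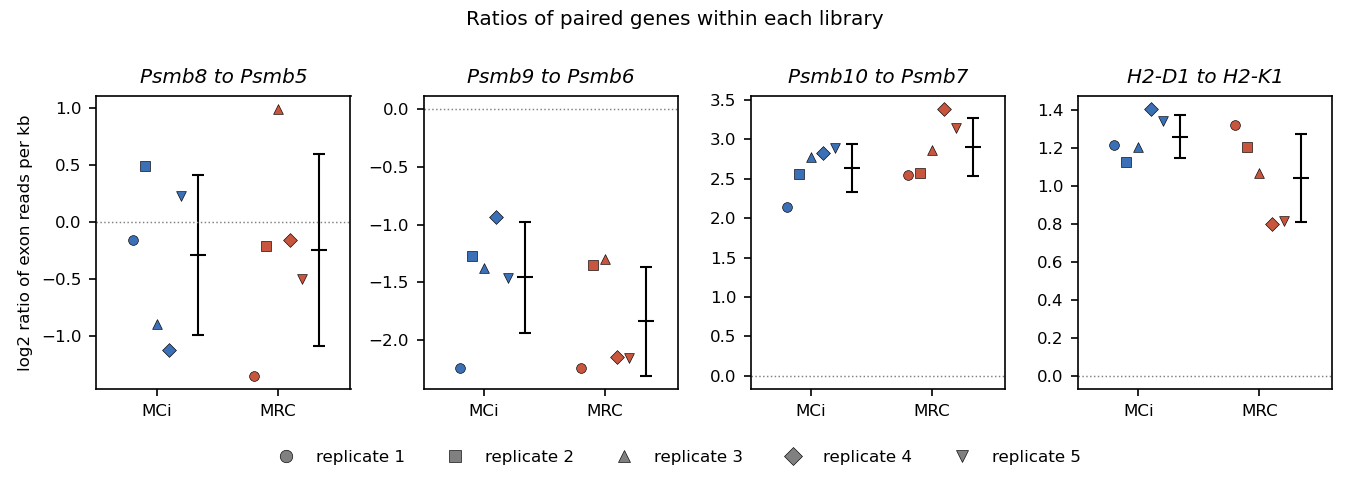
Log2 ratio of exon reads per kb (vertical axis) for 4 pairs of genes within each library, with symbols for the replicate number, bars for the mean ± SD and a dotted line at equal levels. Scaled by annotated exon length, Psmb10 lies above Psmb7 and H2-D1 above H2-K1 in all 10 libraries, and Psmb9 lies below Psmb6 in all 10. MRC4 and MRC5 have the lowest H2-D1 to H2-K1 ratios.

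Many of the members were lowest in the replicate 1 library of a group. By total reads, 8 of 10 were lowest in MCi1 among the MCi libraries and 6 of 10 in MRC1 among the MRC libraries, 5 of them in both. Over 11194 genes of at least 5 CPM the shares were 23.6%, 22.003% and 7.63%. By unique reads the counts were 9, 8 and 8 of 10, beside 24.7%, 26.3% and 9.16% of 10847 genes. H2-K1 in MRC1 was at 0.460 times the median of the other MRC libraries and in MCi1 at 0.645 times that of the other MCi libraries. For Tap1 these values were 0.490 and 0.406.

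Among the members, the closest pairs over the 10 libraries by Pearson's r of log2 CPM from total reads were H2-D1 with Tap1 (0.920), H2-K1 with Psmb9 (0.909) and Tap1 with Psmb9 (0.885), followed by H2-K1 with H2-D1 (0.884). All of these genes were lowest in the replicate 1 library of both groups, and r without those libraries was not computed. The rows of Tap1 and Psmb9 overlap by 212 bases and their promoter windows share 275. Nlrc5 had r = 0.860 with H2-D1. Other pairs had r near or below 0, such as Psmb10 with H2-D1 (0.0448), with Tapbp (-0.12) and with Nlrc5 (-0.17), and Psmb8 with Tapbp (0.0252). The lowest pair by total reads was B2m with Psmb8 at -0.35, and by unique reads the same pair had r = 0.777. By unique reads the closest pairs were B2m with H2-K1 (0.968) and B2m with Psmb9 (0.940). Outside the lists, the genes of at least 10 CPM closest to the mean of the members were Rtf1 (0.95), Dhx40 (0.93), AW209491 (0.86), Tinagl1 (0.85) and Srp54b (0.84), of 9496 compared.

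Replicates 4 and 5 were also compared alone, a contrast in which 26.2% of all genes were called. There 3 members were called, all lower in MRC, a direction called for 10.7% of genes. The log2 fold changes were -0.78 ± 0.17 for H2-D1, -0.86 ± 0.16 for Tap1 and -1.95 ± 0.52 for Nlrc5 (edgeR adjusted p = 0.0217, 0.0129 and 0.0438). These MRC libraries are the ones with 34413 and 46865 CPM of epithelial marker RNA and with mesenchymal marker RNA at 30809 and 32118 CPM, and the part of either in the calls was not tested. Among replicates 1 to 3 alone, 0 members were called by edgeR, beside 0.801% of all genes, and 0 of 10 passed an unadjusted p under 0.05, beside 9.71%.

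Of the wider pathway, 73 genes in 7 lists were tested and 0 were called by edgeR, beside 0.437% of all genes. At an unadjusted p under 0.05, 12 passed, and 16.7% of all genes did. DESeq2 called 6, all higher in MRC beside 4.67% of all genes in that direction, and these were H2-M2, H2-Q1, H2-Q2, Lap3, Ifngr2 and Jak2. The lists comprised 14 other class I heavy chain genes (median log2 fold change -0.34), 3 class I related genes (-0.13), 11 of peptide loading and trimming (-0.0038), 7 proteasome activator and assembly genes (0.13), 14 constitutive proteasome subunits (0.02), 15 class I regulators (-0.13) and 9 interferon receptors, kinases and their inhibitors (-0.12). The median over all genes was 0.01.

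Several of these genes were high in the MRC libraries with much epithelial marker RNA. H2-Q2, a nonclassical heavy chain gene, measured 0.451, 14.6, 0.479, 10.7 and 11.8 CPM in MCi and 0.478, 5.18, 172, 518 and 885 CPM in MRC. H2-Q1 measured 4.28 to 11.9 CPM in MCi and 4.30, 6.22, 63.6, 155 and 282 CPM in MRC. Both stood in MRC in the order of the epithelial markers, unlike H2-K1. For H2-Q2 the log2 fold change was 5.36 with all libraries and 2.92 without MRC4 and MRC5 (edgeR adjusted p = 0.203 and 0.563). For H2-Q1 it was 3.70 and 1.65 (edgeR adjusted p = 0.172 and 0.504). Lap3, a peptide-trimming aminopeptidase, measured 41.2 to 64.7 CPM in MCi and 43.0, 39.1, 106, 427 and 676 CPM in MRC (edgeR adjusted p = 0.204), and its log2 fold change went from 2.35 to 0.30 without MRC4 and MRC5. The proteasome activator gene Psme2 measured 84.9 to 156 CPM in MCi and 86.2, 113, 133, 351 and 401 CPM in MRC (edgeR adjusted p = 0.391), and its log2 fold change went from 0.77 to -0.20 without MRC4 and MRC5. The part of epithelial RNA in these levels was not tested.

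**Figure D5:**
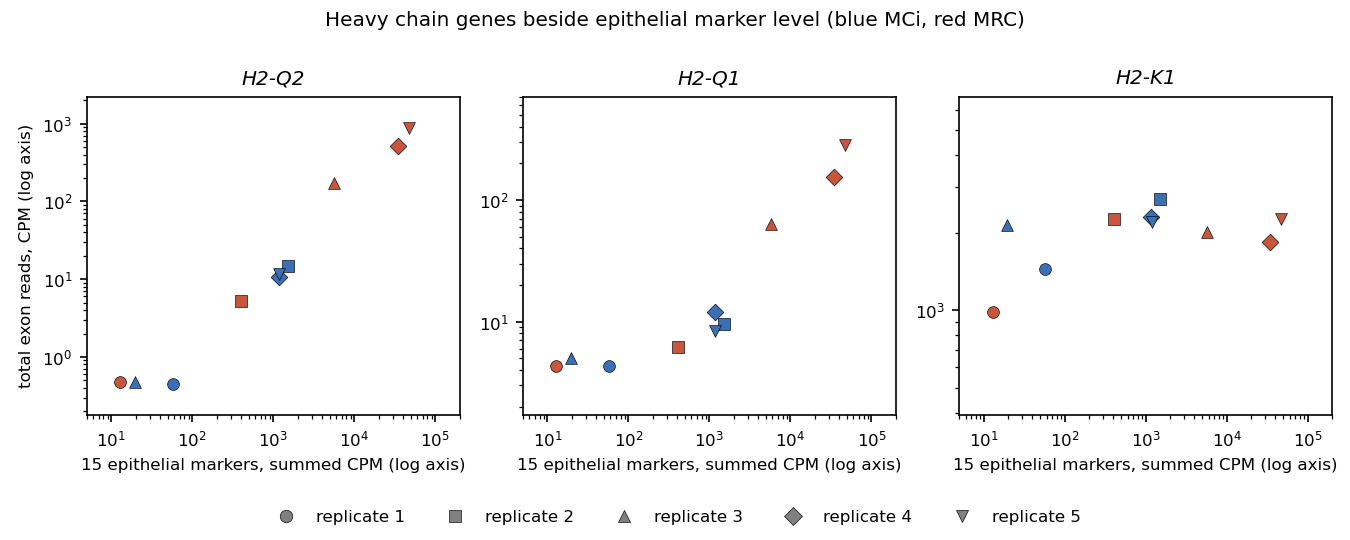
CPM of H2-Q2, H2-Q1 and H2-K1 (vertical log axes) against summed CPM of 15 epithelial markers (horizontal log axis) in each library, MCi in blue and MRC in red. H2-Q2 reaches 885 CPM and H2-Q1 282 CPM in MRC5, the library with the most marker RNA, where H2-K1 is at 2252 CPM.

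H2-M2, Ifngr2 and Socs1 are the genes of those named here whose groups did not overlap. Most genes of the wider lists were named for a small p, so such separation comes in part from the choice. Over all genes tested, 1.1% had every MRC library above every MCi library and 2.69% the reverse. H2-M2, a nonclassical heavy chain gene, was at 0.207 to 2.63 CPM in MCi and 3.28 to 8.66 CPM in MRC, with every MRC library above every MCi library, as for 1.1% of genes. Its log2 fold change was 2.41 ± 0.61 (edgeR adjusted p = 0.128), on 169 exon reads in all, and 2.22 ± 0.71 without MRC4 and MRC5 (edgeR adjusted p = 0.209). Ifngr2, a subunit of the interferon gamma receptor, was at 47.6 to 53.4 CPM in MCi and 58.8, 59.8, 88.9, 187 and 232 CPM in MRC (edgeR adjusted p = 0.163), again in the order of the epithelial markers. Its log2 fold change was 1.33 ± 0.38 with all libraries and 0.48 ± 0.16 without MRC4 and MRC5 (edgeR adjusted p = 0.248). Socs1, an inhibitor of interferon signalling, was at 15.10 to 25.7 CPM in MCi and 7.08 to 15.02 CPM in MRC, the reverse order. Its log2 fold change was -0.67 ± 0.26 (edgeR adjusted p = 0.251), and by unique exon reads its groups overlapped, with MRC2 at 16.6 and MCi4 at 16.3 CPM. Without MRC4 and MRC5 the estimate from total reads was -0.49 ± 0.26 (edgeR adjusted p = 0.524). H2-Q6, singled out after its values were seen because its promoter holds the palindrome of H2-K1 and H2-D1, measured 255, 580.1, 501, 488 and 476 CPM in MCi and 92.0, 389.8, 367, 207 and 233 CPM in MRC. It was lowest in the replicate 1 library of both groups, as was H2-Q7, beside 7.63% of genes of at least 5 CPM. The log2 fold change of H2-Q6 was -0.84 ± 0.37 (edgeR adjusted p = 0.283), and a link to the palindrome was not tested.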

How the data were processed

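RNA of 10 libraries was made into cDNA with the SMART-Seq v4 kit, per the labels' protocols. Build GRCm38 is named in the submitters' processing notes, with an aligner not given in the sources used here. Whole-number counts of total exon, unique exon, gene and exon-exon reads per gene were deposited by the authors, per the file headers. Total exon reads were tested, and unique and exon-exon reads served as alternatives. Genes were kept by filterByExpr (minimum count 10, minimum total 15), and counts were scaled by TMM and fitted with edgeR 4.0.16 (quasi-likelihood, R 4.3.3), with Benjamini-Hochberg adjustment over all 12127 genes and a threshold of 0.05. CPM uses TMM-scaled totals, except the 3-read floors, which use plain totals and, as molecules carried no identifiers, cover counting error only. The SE of a log2 fold change is its size over the root of the F statistic. Other alternatives were DESeq2 1.42.0, other scalings and filters, heavy chains summed, a replicate block, libraries left out, replicate subsets and a term for replicates 4 and 5. Exon-exon reads, and unique reads without MRC4 and MRC5, were chosen after the data were seen. The fit and the permutation test were tested on simulated data. No library pair of a group agreed within sampling noise. Ratios used 0.5 added reads. Of the 10 members, 8 matched RefSeq promoter windows by symbol. Shared words were searched in GENCODE transcripts.

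Named genes are all members, up to 3 genes of smallest p in each wider list, Psmb5, Psmb6, Psmb7, Psme1 and Psme2, and the 5 genes most like the mean of the members. A gene that this rule names is not reported here. Members and lists were chosen with earlier results of these data known. The other class I heavy chain list had 24 names, of which 19 were in the tables, and the erythroid marker list had 0 genes with enough reads to be tested. Figures were drawn with matplotlib 3.10.9, and joins and permutation tests ran in Python 3.11.15 with scipy 1.17.1, numpy 2.4.6 and pandas 2.3.3.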

Additional observations from a re-analysis of the deposited data

Results flagged for a closer look

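In 7 of 94 groups of 5 libraries, 1 library lay farther from the others than is usual by Dixon's criterion, which chance alone meets in about 1 of 20 groups. Among the members, Tap2 in MRC4 was at 207 CPM, with the other MRC libraries at 157 to 170.2 CPM, and the unique share of Nlrc5 reads in MCi1 was 94.3%, with the other MCi libraries at 99.2% or above. That share rests on 35 reads. In the wider pathway, Irf1, an interferon-induced transcription factor, stood high in MCi2 at 341 CPM and in MRC5 at 295 CPM. Socs1 in MCi2 was at 25.7 CPM, Psmb5 in MCi4 at 92.0 CPM and Jak2, a kinase of the interferon gamma receptor, in MRC5 at 146 CPM, each the highest of its group.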

How the results depend on the processing

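Member calls were 0 of those tested under each alternative except replicates 4 and 5 alone (3), where summing the heavy chains leaves no value for H2-K1 and H2-D1. Wider pathway calls were 0 except with DESeq2 (6) and with replicates 4 and 5 alone (24). Over all genes, 53 were called in the main analysis, 871 with DESeq2, 128 without MRC4 and MRC5, 122 by unique reads without them, 95 with replicates 1 to 3 alone, 3460 with replicates 4 and 5 alone and 206 with a term for replicates 4 and 5. Leaving out single libraries gave 16 to 49, with 19, 23, 33, 23 and 16 without MCi1 to MCi5 and 34, 33 and 21 without MRC1, MRC2 and MRC3. The causes were not tested. The labels do not say what a replicate number stands for, and the numbers were not taken to pair the libraries because deviations from the group means did not correlate above 0.1 for each number, with 0.56, -0.25, 0.06, 0.35 and 0.49 for numbers 1 to 5, and only MCi1 with MRC1 and MCi5 with MRC5 matched their own number best in both directions. With the replicate block 49 genes were called over all, 0 members and 0 wider pathway genes, and the sign-flip p-values of the ratios of Psmb8, Psmb9, Psmb10 and H2-D1 pairs were 1.0, 0.375, 0.0625 and 0.313, where 0.0625 is the smallest possible. No gene named passed the threshold in the main analysis, and some estimates changed sign (MRC minus MCi, log2). With unique exon reads these were 0.0163 for Tap2. With replicates 1 to 3 alone these were 0.0453 for Tap2, 0.0972 for Tapbp, -0.25 for Psmb8, -0.16 for Psmb10, 0.0552 for Cd1d1, -0.10 for Psme2, -0.14 for Pomp, -0.0768 for Psmb4, -0.0776 for Psma1, -0.27 for Psmb5, -0.28 for Psmb6, -0.000661 for the ratio of Psmb8 to Psmb5, 0.00171 for the ratio of Psmb9 to Psmb6 and 0.0145 for the ratio of H2-D1 to H2-K1. With upper-quartile factors these were -0.11 for Psmb8 and -0.13 for Psmb5. With no filter these were -0.00135 for Psmb8 and -0.0182 for Psmb5. With the replicate block these were -0.0342 for Psmb8 and -0.0638 for Psmb5. Without MRC4 and MRC5 these were -0.26 for Psmb8, -0.16 for Psmb10, -0.20 for Psme2, -0.0864 for Pomp, -0.00601 for Psmb4, -0.0753 for Psma1, -0.40 for Psmb5 and -0.25 for Psmb6. With a term for replicates 4 and 5 these were -0.00332 for Psmb8 and -0.0416 for Psmb5. With unique exon reads and no MRC4 and MRC5 these were -0.15 for Psmb8, -0.18 for Psmb10, -0.16 for Psme2, -0.0800 for Pomp, -0.00292 for Psmb4, -0.0691 for Psma1, -0.54 for Psmb5 and -0.24 for Psmb6. With replicates 4 and 5 alone these were -0.46 for Fcgrt, 0.13 for Psmb1 and 0.20 for Psmb7. With exon-exon reads these were 0.0411 for Cd1d1. Leaving out 1 library at a time gave -0.0912 to 0.0792 for Tap2, -0.20 to 0.29 for Psmb8, -0.0343 to 0.32 for Fcgrt, -0.30 to 0.0182 for Cd1d1, -0.20 to 0.15 for Psmb5, -0.16 to 0.0479 for Psmb7 and -0.26 to 0.32 for the ratio of Psmb8 to Psmb5. The other estimates had the same sign as in the main analysis. H2-K1, H2-D1, H2-M2, H2-Q1 and H2-Q2 have none with heavy chains summed, H2-M2, H2-Q1 and Socs1 none from exon-exon reads and H2-M2 none at 5 CPM or more. Depth limits H2-M2, with 169 reads in all libraries, and Nlrc5, with 17 reads in MRC1 and 18 in MRC5.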

Other observations

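Among heavy chain genes not named by rule, those of the Q and T regions moved in different ways between libraries, and the genes given here were chosen after their values were seen. H2-T3, which encodes the thymus leukaemia antigen known from intestinal epithelium, was listed at 0 reads in MCi1, MCi3 and MRC1, at 4.15 to 6.43 CPM in MCi2, MCi4 and MCi5, and at 1.30, 38.7, 189.5 and 227 CPM in MRC2 to MRC5. H2-Q7, which encodes the Qa-2 antigen, measured 173, 443, 393, 400.3 and 365 CPM in MCi and 87.9, 318, 249, 149 and 234 CPM in MRC, with replicate 1 lowest in both groups (edgeR adjusted p = 0.302). H2-M3, which presents formylated peptides, measured 30.6, 44.8, 34.3, 16.2 and 24.2 CPM in MRC and ranged from 40.6 to 49.1 CPM over MCi (edgeR adjusted p = 0.251). H2-T23, which encodes Qa-1, measured 388, 504, 473, 537 and 665 CPM in MRC and ranged from 284 to 534 CPM over MCi (edgeR adjusted p = 0.769). Of its exon reads, 52.4% to 56.6% per library were counted as unique, and 0 of the 11794 that crossed no junction were. MRC4 and MRC5 were the highest MRC libraries for H2-T3 and H2-T23 and the lowest for H2-M3, and the part of other cells in this was not tested.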
